A study of Mus musculus with 9 samples.

Results

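The transcriptional response to GSK126, an inhibitor of the histone methyltransferase Ezh2, was examined in mouse marrow stromal cells. Of the 9 RNA sequencing libraries in the series, 6 entered the comparison, 3 of control cultures (siCTL) and 3 of inhibitor-treated cultures (GSK126), chosen by the names of their count columns and their sample titles. Of 23358 entries in the count table, 13240 genes passed a filter on low counts and were tested. All cultures were mesenchymal stem cells from the marrow of adult mice of the C57BL/6 strain, labelled as passage 4 to 10, and the sources used here do not give the passage of each library. Both groups carried a non-targeting siRNA, so the control is not an untransfected culture, and the GSK126 group also received the inhibitor at 5 µM. Cells were plated 1 day before these additions, were then kept in osteogenic medium with ascorbic acid and β-glycerophosphate, and were lysed on day 4. The series text calls the 3 libraries of a group biological replicates. Another group, treated with siRNA against β-catenin (siBcat), entered the fit through the filter on low counts, the scaling and the spread between replicates, and no contrast used it. Its treatment label lists 5 µM GSK126, whereas its titles, source names, column names and the series text give it no inhibitor.

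Ezh2 is the catalytic subunit of Polycomb repressive complex 2 (PRC2), which places methyl groups on lysine 27 of histone H3. This mark, H3K27me3, is typical of silent developmental genes and is read by Polycomb repressive complex 1 (PRC1). GSK126 competes with the methyl donor S-adenosylmethionine in the active site of Ezh2, so it blocks the enzyme without removing its transcript or protein. Marrow stromal cells can form bone, fat and cartilage cells and also support blood stem cells. The comparison asks which transcripts differ when H3K27 methylation by Ezh2 is inhibited while the cells are held in bone-forming medium. H3K27me3 ChIP sequencing of the series was not analysed here.

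Summed counts ran from 44506814 to 46516898 in siCTL and from 43062026 to 55898774 in GSK126. All counts were even, so a count of 2 may stand for 1 fragment. Levels are given as CPM (counts scaled to depth) after TMM scaling, a scaling by the trimmed mean of log ratios, and changes as log2 fold changes of GSK126 over siCTL with the standard error (SE) from edgeR's quasi-likelihood fit. Adjusted p values are from that test with Benjamini-Hochberg adjustment over all 13240 genes, and a gene is said to rise or fall only where this value was under 0.05. GSK126 replicate 3 stood apart from its group. In it, genes in the shortest of 10 equal bins of coding length deviated from the group mean by a median of 0.17 (log2) and genes in the longest bin by -0.23. A cubic trend on log length took up 21.3% of the variance of its deviations, against 0.20 to 0.78% in the siCTL libraries. In GSK126 replicates 1 and 2 it took up 6.998% and 9.24%, with deviations of the opposite sign. Deviations from a group mean cancel out over the group, so a trend in replicate 3 alone would give replicates 1 and 2 an opposite one. The list counts below were therefore also computed without GSK126 replicate 3 and are given where they differed.

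Most of the markers listed for marrow stromal cells were detected in the libraries. Of 12 such markers 11 were tested, and Thy1 was at 0 counts in all 6 libraries. The summed level of the stromal markers was 23074 to 27951 CPM in siCTL and 26418 to 28970.4 CPM in GSK126, so the ranges overlapped. The list includes the type I collagen genes Col1a1 and Col1a2, and the part of single genes in this sum is not given here. Single markers did change. Of the 11, 3 rose and 3 fell (27.3% each, beside 14.3% and 10.7% of all genes). Those that fell were Pdgfra (-0.59), Pdgfrb (-0.36) and Prrx1 (-0.31). Without GSK126 replicate 3, 2 rose and 3 fell. Of 15 macrophage and other haematopoietic markers 8 were at 0 in all 6 libraries, among them Ptprc (CD45), Emr1 (F4/80) and Itgam (CD11b), and the whole list summed to 12.7 to 15.2 CPM in siCTL and 10.2 to 12.6 CPM in GSK126. Endothelial markers summed to 1.45 to 2.26 CPM over the 6 libraries, neural and glial markers to 4.01 to 5.65 CPM and epithelial markers to at most 0.705 CPM. Skeletal muscle markers summed to 46.0 to 51.3 CPM in siCTL and 46.8 to 55.8 CPM in GSK126, nearly all of it from Des, the intermediate filament gene desmin (-0.09, adjusted p = 0.398). The muscle regulators Myog, Myf5 and Myf6 were at 0 throughout, and Acta1, the other tested marker of that list, rose from 1.77 ± 0.147 to 7.57 ± 0.355 CPM (SD, n = 3). Without GSK126 replicate 3, Acta1 still rose and Des fell.

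In the GSK126 libraries 1892 genes rose and 1419 fell, that is 14.3% and 10.7% of the genes tested, or 25% in both directions. Large changes were mostly increases. A rise of at least 2-fold was found for 300 genes (2.27%) and a fall of that size for 59 genes (0.446%). Of the 300 genes, 190 (63.3%) stood below 1 CPM in siCTL, beside 13.9% of all genes tested. The median siCTL level of the 300 was 0.531 CPM, against 24.5 CPM over all genes tested. The 59 genes were low as well, with a median of 1.57 CPM and 32.2% below 1 CPM. A gene near 0 in siCTL can pass the filter only through another group and has little room to fall. Such a gene can enter these counts mainly as an increase. Without GSK126 replicate 3, 270 of the 300 and 49 of the 59 were still past the threshold, and 2994 of all 3311 calls (90.4%) remained. The share that remained was 81.4% and 85.8% without GSK126 replicates 1 and 2, 73.3%, 69.1% and 68.7% without siCTL replicates 1, 2 and 3, and 74.0% with only the 6 libraries in the fit, where 1390 genes rose and 1087 fell. The share of calls that were increases was 57.1%. It was 66.1% with scaling by library size only and 40.8% with each library's trend on coding length removed. Over all genes tested, the median log2 change was 0.01, and for 42.1% of the genes the GSK126 libraries were all above (21.9%) or all below (20.2%) the siCTL libraries.

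**Figure D1:**
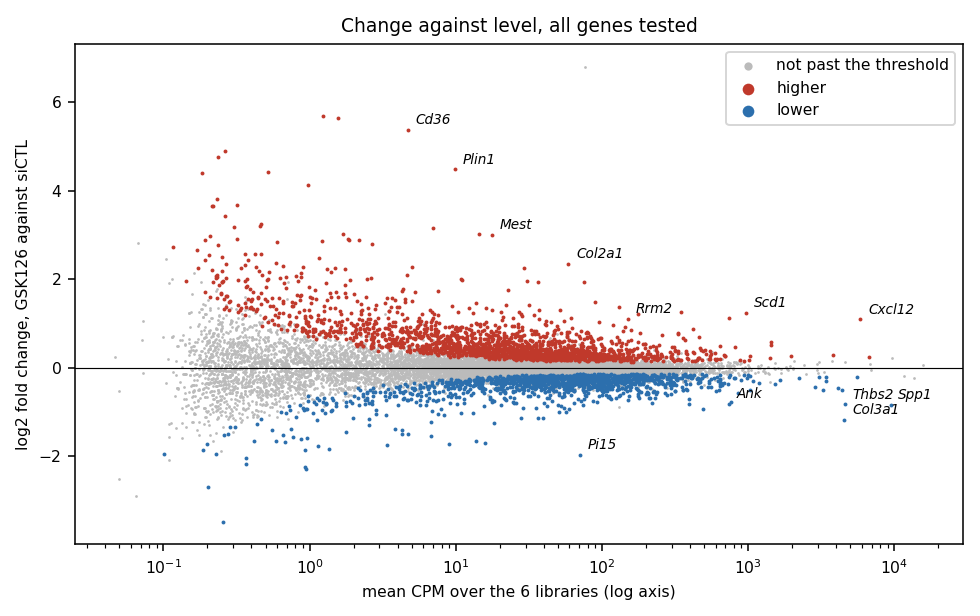
Each point is 1 of the 13240 genes tested, placed by its mean CPM over the 6 libraries (log axis) and its log2 fold change of GSK126 over siCTL, with genes past the threshold in red (higher, 1892) and blue (lower, 1419). The largest changes past the threshold are increases at low levels, the grey point at the top is Tmem158, and abundant genes such as Spp1, Col3a1 and Thbs2 lie below 0.

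The share of genes that fell grew with level, from 1.3% in the lowest of 10 equal bins of mean CPM to 19.3% in the highest. The share that rose was 8.2% in the lowest bin, 18.4% in bin 3 and 11.6% in the highest. Rises and falls of at least 2-fold made up 7.9% and 1.3% of genes in the lowest bin, against 0.45% and 0.08% in the highest. Calls at low levels were thus almost only of large changes, and shares at different levels do not cover the same sizes of change. The genes that fell had a median siCTL level of 57.6 CPM and those that rose 18.1 CPM. One gene with a large fitted change did not pass the threshold. Tmem158 had 448.9 CPM in GSK126 replicate 2 and 0.976 to 2.68 CPM in the other 5 libraries (adjusted p = 0.0960), so its log2 value of 6.80 rests on 1 library.

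The 12 largest increases and the 12 largest decreases were taken among genes whose groups were separate, whose 6-library mean reached 2 CPM and whose call held without GSK126 replicate 3. Cd36 (chromosome 5, 17781690 to 17888801), a scavenger receptor and fatty acid transporter of the cell surface, had 0.181, 0.309 and 0.170 CPM in siCTL and 10.4, 9.60 and 7.68 CPM in GSK126. This is a log2 change of 5.37 (SE 0.29, adjusted p = 1.17e-07). Plin1 (chromosome 7, 79720218 to 79732903), the coat protein of adipocyte lipid droplets, had 0.724, 0.882 and 0.934 CPM in siCTL and 19.9, 19.8 and 17.3 CPM in GSK126 (4.48, SE 0.21, adjusted p = 6.46e-08). For both genes replicate 3 was the lowest of the GSK126 libraries. Adipoq (chromosome 16, 23146536 to 23158028), which encodes the fat cell hormone adiponectin, had 2.81, 2.82 and 3.82 CPM in siCTL and 24.6, 23.6 and 28.6 CPM in GSK126 (3.02, SE 0.14). Further genes of lipid storage or fat tissue in the same class were the carbonic anhydrase Car3 (3.17), the metalloreductase Steap4 (2.89) and the lipase inhibitor G0s2 (2.25).

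The other large increases covered several functions. Mest (chromosome 6, 30723547 to 30748465), a paternally expressed imprinted gene, had 4.07, 3.75 and 3.99 CPM in siCTL and 31.1, 33.2 and 30.5 CPM in GSK126 (3.00, SE 0.10, adjusted p = 2.32e-09). Col2a1, the main collagen of cartilage (chromosome 15, 97975602 to 98004695), had 21.6, 21.4 and 15.2 CPM in siCTL and 103, 102 and 90.1 CPM in GSK126 (2.34, SE 0.13). Mest varied little within each group. The rest were the metalloprotease Adamts15 (2.79), the aldehyde dehydrogenase Aldh1a7 (2.28), the skeletal muscle actin Acta1 (2.10) and the aryl hydrocarbon receptor repressor Ahrr (2.03). Aldh1a7 has a close paralog in Aldh1a1, and the actins resemble each other, so reads may have been assigned between such copies.

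The largest decreases were smaller in size. Pi15, which encodes a secreted protease inhibitor of the CAP family (chromosome 1, 17601901 to 17630939), had 107, 110.5 and 119.97 CPM in siCTL and 31.7, 32.8 and 22.3 CPM in GSK126 (-1.96, SE 0.12, adjusted p = 2.34e-06). Replicate 3 was the lowest of the GSK126 libraries. The mitochondrial fission factor Gdap1 (-1.75), the tyrosine phosphatase Ptpn5 (-1.73), the sushi-domain protein Susd2 (-1.71) and the giant muscle protein gene Neb (-1.65) fell next most. Neb was lowest in GSK126 replicate 3 at 3.92 CPM, against 7.28 and 8.64 CPM in replicates 1 and 2, and its change without that library was -1.39. Evi2a (-1.55), Fam131b (-1.50), Mrgprf (-1.49), Gchfr (-1.40), Macc1 (-1.30), the integrin chain Itgb8 (-1.26) and Clca5 (-1.23) completed the class.

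**Figure D2:**
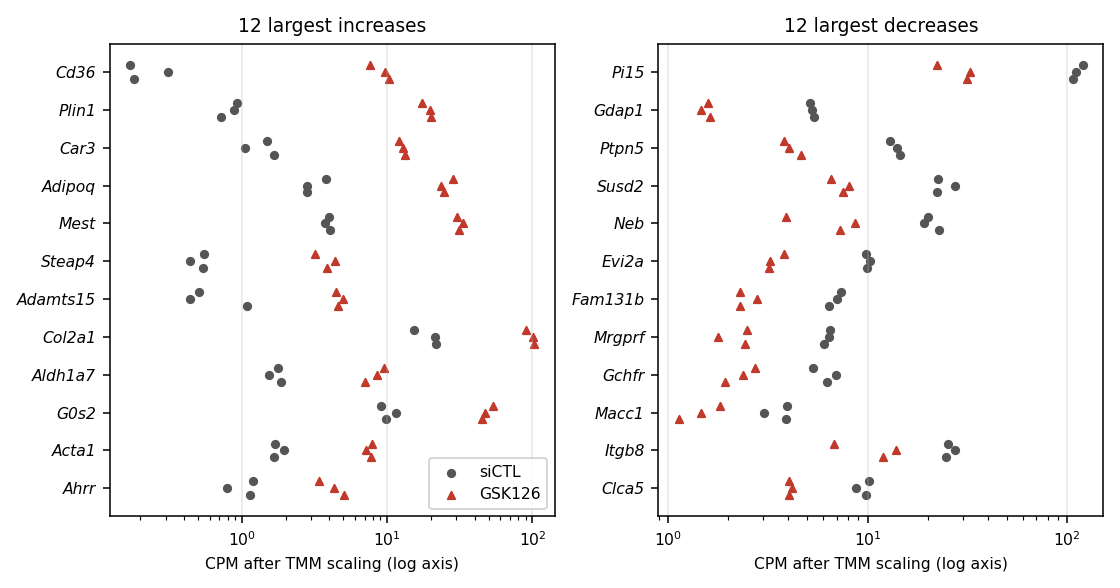
CPM per library on a log axis for the 12 largest increases (left) and the 12 largest decreases (right), with siCTL as grey circles and GSK126 as red triangles, 3 libraries each. The 24 genes were chosen on the condition that no GSK126 library overlaps a siCTL library. The increases span from 4.09-fold (Ahrr) to 41.5-fold (Cd36).

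Transcripts of the target's own complex changed little. Ezh2 (chromosome 6, 47530139 to 47595341) had 23.1, 23.6 and 24.4 CPM in siCTL and 29.3, 26.0 and 28.3 CPM in GSK126 (0.23, SE 0.06, adjusted p = 0.0169). The groups did not overlap, but the call ended without siCTL replicate 1 or 2 (0.0662 and 0.0681), without GSK126 replicate 1 (0.0751) and with only the 6 libraries in the fit (0.0649). The second methyltransferase Ezh1 stood at 24.1 ± 0.217 CPM in siCTL and 22.5 ± 1.47 CPM in GSK126 (SD, n = 3) (-0.10, adjusted p = 0.340). The scaffold subunits Eed (0.12, adjusted p = 0.225) and Suz12 (-0.02, adjusted p = 0.817) had overlapping libraries. Since the inhibitor acts on the enzyme, these levels do not measure the inhibition.

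Of 12 PRC2 genes 11 were tested, with a median of 0.01. Ezh2 and Phf19 rose, that is 2 genes (18.2%, beside 14.3% of all genes), and none fell (beside 10.7%). Phf19, an accessory subunit that recruits PRC2 to chromatin, had 2.76, 2.51 and 2.46 CPM in siCTL and 5.62, 6.62 and 5.74 CPM in GSK126 (1.21, SE 0.14, adjusted p = 3.62e-05). Its GSK126 libraries were each more than 2-fold above the highest siCTL library. Of 24 genes of PRC1 and the H3K27 demethylases, 3 rose (12.5%) and 2 fell (8.3%), which is near the shares over all genes. Cbx6 (0.21) and Bmi1 (0.17) were among those that rose, and Rybp (-0.28) and Phc2 (-0.22) fell. None of the 3 increases remained without siCTL replicate 3 or with only the 6 libraries in the fit, and 1 remained without siCTL replicate 2, GSK126 replicate 1 or GSK126 replicate 2. Decreases numbered 5 if GSK126 replicate 3 was left out and 4 if replicate 2 was.

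Genes of DNA replication and mitosis were higher in GSK126 almost throughout. Of 46 S-phase genes tested 43 rose (93.5%, beside 14.3% of all genes) and none fell, with a median log2 change of 0.53. Of 36 genes of mitosis and the G2/M transition 35 rose (97.2%) and none fell, with a median of 0.61. Without GSK126 replicate 3 these counts were 41 and 35. The exceptions were the replication genes Gins3 (0.16, adjusted p = 0.479), Orc1 (0.21, adjusted p = 0.230) and Rfc4 (0.26, adjusted p = 0.0649) and the securin gene Pttg1 (0.14, adjusted p = 0.379). The S-phase genes summed to 1331, 1337 and 1325 CPM in siCTL and 2001, 1986 and 2036 CPM in GSK126. The G2/M genes summed to 1063, 1058 and 1053 CPM in siCTL and 1597, 1615 and 1557 CPM in GSK126. Both sums were similar in the 3 libraries of a group, and GSK126 replicate 3 did not stand apart.

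Most of these genes are switched on once per cell cycle from short promoters. E2F factors bind sites in promoters of replication genes, while mitotic genes often carry the cell cycle genes homology region (CHR), bound by MuvB complexes, together with CCAAT boxes, bound by NF-Y. The following promoters are those of the 3 genes that rose in each list with the smallest adjusted p and a match in the window. The window is 250 bases before to 50 after the start. The choice passed over genes on 1 chromosome. They are from RefSeq on GRCm38.p6, each 5′ to 3′ on the strand of the gene. Capitals in Mcm3 (chr1:20820263-20820562, minus strand), Mcm5 (chr8:75109259-75109558, plus strand) and Mcm7 (chr5:138171834-138172133, minus strand) mark E2F letters. Capitals in Top2a (chr11:99024140-99024439, minus strand), Bub1b (chr2:118597961-118598260, plus strand) and Prc1 (chr7:80294226-80294525, plus strand) mark CHR and CCAAT letters.
Mcm3: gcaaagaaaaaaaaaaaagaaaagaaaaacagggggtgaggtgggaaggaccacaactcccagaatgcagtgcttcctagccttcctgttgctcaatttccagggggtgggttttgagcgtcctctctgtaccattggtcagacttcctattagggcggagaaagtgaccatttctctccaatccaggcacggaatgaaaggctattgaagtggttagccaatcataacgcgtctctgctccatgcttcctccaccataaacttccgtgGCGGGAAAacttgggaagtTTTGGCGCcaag
Mcm5: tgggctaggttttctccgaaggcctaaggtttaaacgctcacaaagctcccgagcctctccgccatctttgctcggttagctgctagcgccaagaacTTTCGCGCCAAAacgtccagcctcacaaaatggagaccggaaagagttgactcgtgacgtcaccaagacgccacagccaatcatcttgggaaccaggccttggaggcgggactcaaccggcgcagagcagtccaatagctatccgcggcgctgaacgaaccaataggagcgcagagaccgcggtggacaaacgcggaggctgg
Mcm7: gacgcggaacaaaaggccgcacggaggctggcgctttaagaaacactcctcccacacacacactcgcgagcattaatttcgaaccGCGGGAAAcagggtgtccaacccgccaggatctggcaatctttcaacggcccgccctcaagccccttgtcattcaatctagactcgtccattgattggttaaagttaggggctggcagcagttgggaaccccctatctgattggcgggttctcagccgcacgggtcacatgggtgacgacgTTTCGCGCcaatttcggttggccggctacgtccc
Top2a: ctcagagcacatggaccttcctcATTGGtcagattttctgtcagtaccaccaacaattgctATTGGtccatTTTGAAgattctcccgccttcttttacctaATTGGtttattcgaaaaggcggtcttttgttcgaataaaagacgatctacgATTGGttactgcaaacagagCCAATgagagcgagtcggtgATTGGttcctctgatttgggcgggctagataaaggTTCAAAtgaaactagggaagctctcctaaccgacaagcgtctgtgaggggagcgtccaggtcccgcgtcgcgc
Bub1b: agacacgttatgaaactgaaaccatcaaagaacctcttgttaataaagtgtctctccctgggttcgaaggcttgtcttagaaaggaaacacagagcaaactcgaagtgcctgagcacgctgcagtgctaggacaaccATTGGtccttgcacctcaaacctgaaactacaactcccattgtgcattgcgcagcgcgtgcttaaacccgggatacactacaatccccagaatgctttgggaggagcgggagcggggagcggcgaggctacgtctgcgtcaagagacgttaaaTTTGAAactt
Prc1: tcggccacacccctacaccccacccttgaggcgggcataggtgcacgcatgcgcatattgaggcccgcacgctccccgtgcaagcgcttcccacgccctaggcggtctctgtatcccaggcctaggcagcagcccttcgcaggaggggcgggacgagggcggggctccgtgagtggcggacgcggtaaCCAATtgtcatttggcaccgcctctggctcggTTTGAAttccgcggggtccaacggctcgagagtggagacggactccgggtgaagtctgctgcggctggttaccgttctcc
The E2F search used TTTCCCGC, TTTCGCGC, TTTGCCGC and TTTGGCGC, the CHR search TTTGAA and the CCAAT search those 5 letters, all on both strands, with overlapping matches merged to 1 stretch. Of the 46 S-phase genes 37 (80.4%) and of the 36 G2/M genes 31 (86.1%) had a window. E2F letters were in 14 of the 37 S-phase promoters (37.8%), in 1 of the 31 G2/M promoters (3.23%) and in 385 of 9388 promoters of genes tested (4.10%). CHR letters were in 21 of the 31 G2/M promoters (67.7%), in 5 of the 37 S-phase promoters (13.5%) and in 11.4% of promoters of genes tested. CCAAT was in 24 of 31 (77.4%), 23 of 37 (62.2%) and 39.2% of them. Over all 15711 promoters matched to a gene the shares were 2.87% for E2F, 15.7% for CHR and 39.0% for CCAAT. A match in these letters is a description of the sequence and was not tested for binding.

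Mcm3, Mcm5 and Mcm7 encode subunits of the replicative helicase. Mcm3 had 41.6, 43.0 and 45.6 CPM in siCTL and 79.7, 81.0 and 80.9 CPM in GSK126 (0.89, SE 0.05, adjusted p = 2.64e-07). Mcm5 rose by 0.73 (SE 0.05) and Mcm7 by 0.63 (SE 0.05). Rrm2, the regulated subunit of ribonucleotide reductase (chromosome 12, 24708241 to 24714146), had 96.2, 96.5 and 94.8 CPM in siCTL and 203, 208 and 208 CPM in GSK126 (1.11, SE 0.05, adjusted p = 1.86e-08). The GSK126 libraries of Rrm2 and Mcm3 all exceeded every siCTL library. Ccna2, the S-phase cyclin, rose from 34.4 ± 0.817 to 61.8 ± 1.25 CPM (SD, n = 3).

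Among G2/M genes, Ccnb1, the mitotic cyclin (chromosome 13, 100778650 to 100786570), had 29.2, 30.5 and 30.6 CPM in siCTL and 48.9, 51.9 and 47.3 CPM in GSK126 (0.71, SE 0.06, adjusted p = 2.54e-06). The spindle checkpoint gene Bub1b (0.61), the DNA topoisomerase Top2a (0.63), the kinetochore gene Nuf2 (0.71) and the spindle midzone gene Prc1 (0.56) rose as well (SE 0.05 to 0.06). Groups did not overlap for any of these 5 genes. Inhibitors of the cycle did not move as a block. Of 28 Cdk inhibitors and p53 targets tested 7 rose (25%) and 3 fell (10.7%), beside 14.3% and 10.7% of all genes. Their median was 0.08. The death receptor gene Fas (0.83), the antiproliferative gene Btg2 (0.38) and the Cdk4/6 inhibitor gene Cdkn2d (0.79) rose, and the stress sensor Sesn1 fell (-0.45, adjusted p = 0.000166). Cdkn2a, a known Polycomb target, had 48.4, 45.6 and 36.6 CPM in siCTL and 48.1, 44.5 and 58.2 CPM in GSK126, with overlapping groups (0.21, adjusted p = 0.196). Its p16 and p19 transcripts are counted as 1 gene. Without GSK126 replicate 3, 8 genes of this list rose and 5 fell.

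Adipocyte genes rose as a group. Of 25 adipocyte transcription factors, lipid droplet proteins and adipokines tested, 20 rose (80%, beside 14.3% of all genes) and none fell (beside 10.7%). Their median was 0.76. Without GSK126 replicate 3, 19 rose and 1, the droplet coat gene Plin2, fell (-0.12, adjusted p = 0.0189). Counts in bulk RNA cannot tell more cells of a type from more RNA per cell. Beside Cd36, Plin1 and Adipoq, further fat cell genes, some named after their values were seen, had low siCTL levels. The complement protease gene Cfd (adipsin) had 0.0452, 0.0882 and 0 CPM in siCTL and 2.33, 2.07 and 2.83 CPM in GSK126. The droplet fusion gene Cidec rose from 0.366 ± 0.0288 to 3.00 ± 0.336 CPM, the glucose transporter Slc2a4 from 0.426 ± 0.118 to 3.23 ± 0.381 CPM and the hormone-sensitive lipase Lipe from 1.96 ± 0.287 to 6.74 ± 0.597 CPM (SD, n = 3). In each of these 4 genes every GSK126 library exceeded every siCTL library.

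Values for the transcription factors of the list follow. Pparg, the nuclear receptor that drives fat cell formation, had 62.6, 61.6 and 62.8 CPM in siCTL and 77.5, 76.9 and 81.8 CPM in GSK126 (0.34, SE 0.05, adjusted p = 0.000348). Its partner Cebpa rose by 0.25 (adjusted p = 0.0175), a call lost without siCTL replicate 2 (0.0626) or replicate 3 (0.0755). The early factor Cebpd (0.98) lost its call without siCTL replicate 2 or 3 or GSK126 replicate 3 (0.0590, 0.0506 and 0.101), and Cebpb differed by 0.46 with overlapping libraries (adjusted p = 0.150). Among fatty acid carriers and enzymes of fat storage, Fabp4 rose by 0.79, Fabp5 by 0.80, Dgat2, which makes triglyceride, by 1.26, and Lpl, which releases fatty acids from lipoproteins, by 0.27, from 1773 ± 38.7 to 2143 ± 95.2 CPM. Lep, the leptin gene, was at 0 in all 6 libraries.

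**Figure D3:**
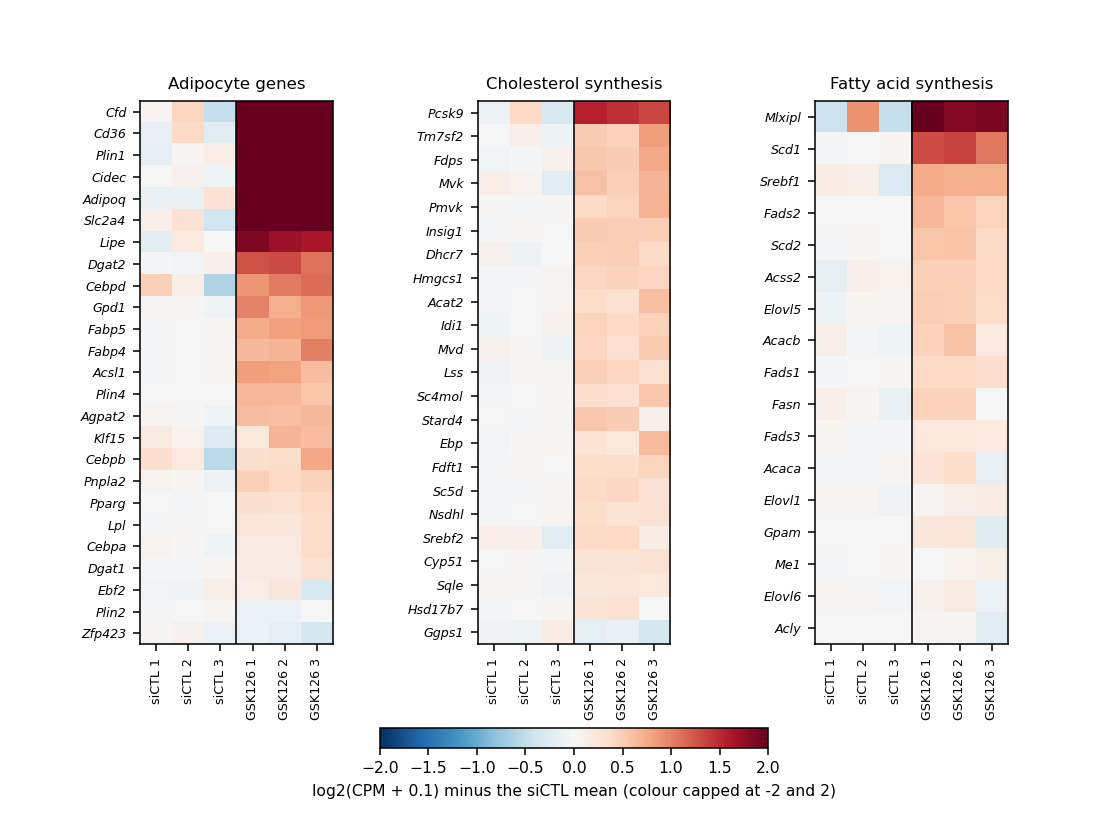
Colour shows log2(CPM + 0.1) minus the siCTL mean of the gene, capped at -2 and 2, for each of the 6 libraries, in tested adipocyte, cholesterol (23 of 26 shown) and fatty acid genes ordered by log2 fold change. The 3 GSK126 columns are red for most genes, replicate 3 is paler or blue for Fasn, Acaca and Gpam, and the largest changes are in the adipocyte panel.

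Lipid synthesis genes rose in 2 pathways that share the regulators Srebf1 and Srebf2, whose part in these changes was not tested. The call of Srebf2 itself was lost without GSK126 replicate 3 (adjusted p = 0.0571) or siCTL replicate 3 (0.103). It was also lost with only the 6 libraries in the fit (0.0702). In cholesterol synthesis and uptake 24 of 26 genes rose (92.3%, beside 14.3% of all genes) and none fell (beside 10.7%), with a median of 0.40. Without GSK126 replicate 3, 24 rose, 23 of them among those called with all libraries. Summed over the list, siCTL libraries had 2349 to 2412 CPM and GSK126 libraries 3050.0 to 3099 CPM. Insig1, the sterol-dependent regulator of the pathway (chromosome 5, 28071363 to 28078662), had 184, 189.8 and 188 CPM in siCTL and 266, 262 and 263 CPM in GSK126 (0.49, SE 0.05, adjusted p = 8.63e-06). Both groups were tight, and all GSK126 libraries were higher. The synthase Hmgcs1 (0.44, SE 0.05) and the farnesyl diphosphate synthase Fdps (0.61, SE 0.07) rose, with Fdps highest in GSK126 replicate 3. The genes without a call were Hsd17b7 (0.20, adjusted p = 0.0526) and Ggps1 (-0.22, adjusted p = 0.0715).

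Of 17 genes of fatty acid synthesis and desaturation 10 rose (58.8%, beside 14.3% of all genes) and none fell (beside 10.7%). Their median was 0.38, and 13 rose without GSK126 replicate 3. Scd1, the stearoyl-CoA desaturase (chromosome 19, 44394455 to 44407879), had 555, 573 and 592 CPM in siCTL and 1408, 1458 and 1196 CPM in GSK126 (1.24, SE 0.07, adjusted p = 1.37e-07). Every GSK126 library was more than 2-fold above every siCTL library. Scd2 (0.51), Fads2 (0.56) and Fads1 (0.38), further desaturases, and the regulator Srebf1 (0.71) rose as well. The synthase Fasn differed by 0.32 (adjusted p = 0.0814), with 466, 464 and 335 CPM in GSK126 and 361, 349.7 and 305 CPM in siCTL, and without replicate 3 the difference was 0.46 (adjusted p = 0.00588). Acaca behaved alike (0.17, adjusted p = 0.258, and 0.31, adjusted p = 3.7e-06, without that library).

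Osteoblast genes moved in both directions. Of 22 tested 6 rose (27.3%) and 5 fell (22.7%), beside 14.3% and 10.7% of all genes, with a median of 0.09. Without GSK126 replicate 3, 8 rose and 5 fell. The early marker Alpl, tissue-nonspecific alkaline phosphatase, had 7.74, 8.51 and 7.09 CPM in siCTL and 10.95, 12.1 and 10.9 CPM in GSK126 (0.54, SE 0.10, adjusted p = 0.00134). The osteoclast decoy receptor Tnfrsf11b (osteoprotegerin) rose by 0.94 (SE 0.06), the phosphatase Phospho1 by 0.94 (SE 0.13), the bone sialoprotein gene Ibsp by 2.16 (SE 0.40) and the homeobox gene Dlx5 by 1.28 (SE 0.28). Panx3 (1.52) lost its call under 6 alternatives. Dlx5, Ibsp and Panx3 had means of at most 2.29 CPM. The key regulators Runx2 (-0.18, adjusted p = 0.10004) and Sp7 (0.61, adjusted p = 0.185) and the type I collagen genes Col1a1 (0.22, adjusted p = 0.198) and Col1a2 (0.06, adjusted p = 0.562) had no call.

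The osteoblast-list genes that fell were Spp1, Ank, Enpp1, Dmp1 and Phex. Spp1 (osteopontin; chromosome 5, 104435118 to 104441050) had 11766, 11717 and 12895 CPM in siCTL and 6589, 6484 and 7154 CPM in GSK126 (-0.85, SE 0.06, adjusted p = 1.16e-06). The pyrophosphate exporter Ank (chromosome 15, 27466677 to 27594909) had 962, 917 and 956 CPM in siCTL and 553, 544 and 517 CPM in GSK126 (-0.81, SE 0.05). Both genes were separated by group with all GSK126 libraries lower. The pyrophosphate-producing enzyme Enpp1 (-0.44), the matrix protein Dmp1 (-0.51) and the peptidase Phex (-0.49) had smaller decreases. Bglap (osteocalcin) had at most 4 counts in a library and was not tested, and Sost was at 0.

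Of 10 cartilage genes tested 3 rose (30%, beside 14.3% of all genes) and none fell (beside 10.7%). Beside Col2a1, the hypertrophic cartilage collagen Col10a1 had 48.0, 42.8 and 49.2 CPM in siCTL and 141, 131 and 122 CPM in GSK126 (1.49, SE 0.08, adjusted p = 8.63e-08), and Matn3 rose by 1.60 from 0.780 ± 0.297 CPM. The cartilage regulator Sox9 had 22.6, 25.3 and 19.99 CPM in siCTL and 26.1, 25.3 and 19.2 CPM in GSK126, with overlapping groups (0.05, adjusted p = 0.763).

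Of 19 tested genes of the stromal progenitor and the blood stem cell niche, 8 rose (42.1%) and 5 fell (26.3%). The shares over all genes were 14.3% and 10.7%. Cxcl12 (chromosome 6, 117168535 to 117181367), the chemokine that retains blood stem cells in marrow, had 3713, 3781 and 3756 CPM in siCTL and 8126, 8180.3 and 7700.05 CPM in GSK126 (1.09, SE 0.05, adjusted p = 1.94e-08). All 3 GSK126 libraries were more than 2-fold above the siCTL libraries. The adhesion molecule Vcam1 (0.47), stem cell factor Kitl (0.35) and interleukin 7 (Il7, 1.11) rose. The growth factor receptors Pdgfra (-0.59, adjusted p = 3.09e-05) and Pdgfrb (-0.36), the niche factor Angpt1 (-0.36) and the transcription factor Ebf3 (-0.39) fell. Lepr, a marker of adult marrow stroma, stood at 0.731 ± 0.253 and 0.849 ± 0.201 CPM (SD, n = 3) with no call (0.22, adjusted p = 0.624).

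**Figure D4:**
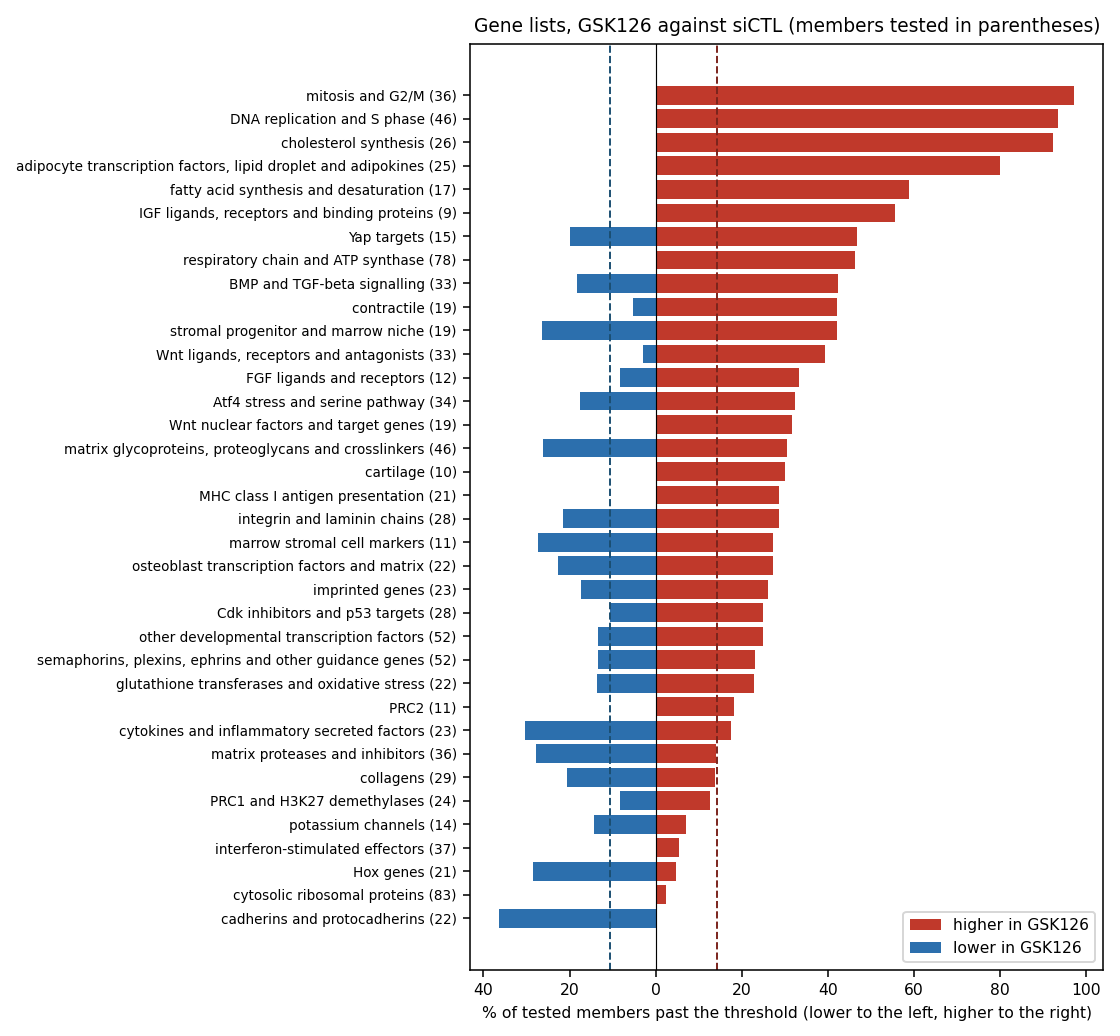
Bars give, for each gene list with at least 9 tested members (number in parentheses), the percentage of tested members that rose (red, right) or fell (blue, left) in GSK126, and the dashed lines give the same over all genes tested (14.3% and 10.7%). Replication, mitosis, cholesterol and adipocyte genes have the longest red bars, and cadherins the longest blue one.

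Of 33 Wnt ligands, receptors and antagonists tested 13 rose (39.4%, beside 14.3% of all genes) and 1 fell (3.0%, beside 10.7%). Their median was 0.26, and 16 rose and 2 fell without GSK126 replicate 3. Sfrp1, a secreted Wnt antagonist (chromosome 8, 23411502 to 23449632), had 71.5, 74.7 and 72.1 CPM in siCTL and 191, 204 and 173 CPM in GSK126 (1.38, SE 0.07, adjusted p = 7.52e-08). The antagonists Frzb (0.73) and Sfrp4 (0.48) rose, as did the Wnt enhancers Rspo2 (0.79) and Rspo3 (1.11) and the R-spondin receptors Lgr4 (0.40) and Lgr5 (0.50). Wnt5b fell by 0.82 (adjusted p = 0.000377), and 2 genes fell without GSK126 replicate 2. Antagonists and enhancers of the pathway were thus both among the genes that rose. Of 19 nuclear factors and target genes 6 rose (31.6%) and none fell, and without GSK126 replicate 3 the number that rose was 10. Nkd1, a feedback inhibitor, had 1.95, 1.94 and 2.08 CPM in siCTL and 6.501, 6.48 and 6.83 CPM in GSK126 (1.73, SE 0.12), with tight and separate groups. Axin2, the usual β-catenin target, had at most 8 counts in a library and was not tested, and Lef1 (-0.10, adjusted p = 0.411) had no call.

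Of 33 genes of BMP and TGF-beta signalling 14 rose (42.4%, beside 14.3% of all genes) and 6 fell (18.2%, beside 10.7%). Their median was 0.32, and 11 rose and 8 fell without GSK126 replicate 3. The ligand Bmp4 had 10.6, 9.26 and 10.7 CPM in siCTL and 24.6, 27.1 and 24.3 CPM in GSK126 (1.31, SE 0.08, adjusted p = 4.89e-07), and Bmp2 rose by 2.48 from 0.351 ± 0.0762 CPM. The activin antagonist Fst (1.71) and the latent TGF-beta binding protein Ltbp2 (1.06) rose as well. Id1, a direct BMP target, had 12.5, 10.9 and 7.51 CPM in siCTL and 31.4, 33.3 and 39.9 CPM in GSK126 (1.76, SE 0.21, adjusted p = 0.000361). The groups of Bmp4, Fst and Id1 did not overlap. The ligand Tgfb3 (-0.36), the binding protein Ltbp1 (-0.29) and the receptor Acvr1 (-0.24) fell, and the number of decreases was 3 without siCTL replicate 2.

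Of 9 IGF-pathway genes tested 5 rose (55.6%, beside 14.3% of all genes) and none fell (beside 10.7%). Without GSK126 replicate 3 the receptor Igf2r fell (-0.13, adjusted p = 0.0136). The binding protein Igfbp4 had 467, 506 and 431 CPM in siCTL and 983, 966 and 1111 CPM in GSK126 (1.12, SE 0.08, adjusted p = 6.7e-07), and the ligands Igf1 (0.70) and Igf2 (0.59) and the binding proteins Igfbp5 (0.95) and Igfbp7 (0.33) rose too. Of 12 FGF-pathway genes 4 rose (33.3%) and 1 fell (8.3%). The receptors were unlike each other. Fgfr2 rose from 35.8 ± 2.38 to 74.7 ± 2.40 CPM (1.06, SE 0.06) and the decoy receptor Fgfrl1 by 0.84, whereas Fgfr1 fell by 0.18 (adjusted p = 0.0132), a call lost without siCTL replicate 1 (0.0555).

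Matrix genes changed in both directions. Of 29 collagen genes 4 rose (13.8%, beside 14.3% of all genes) and 6 fell (20.7%, beside 10.7%). Without GSK126 replicate 3, 5 rose and 6 fell. Col3a1 (chromosome 1, 45311538 to 45349706), which forms fibrils with type I collagen, had 6299, 6525 and 6163 CPM in siCTL and 2943, 2904 and 2575 CPM in GSK126 (-1.17, SE 0.06, adjusted p = 7.52e-08). Every GSK126 library was more than 2-fold below every siCTL library. The type VI chains Col6a1 (-0.46), Col6a2 (-0.50) and Col6a3 (-0.50) and the type VIII chain Col8a1 (-0.93) fell as well, the Col6a3 call being lost without any 1 siCTL library (0.0505 to 0.0603). The second type VIII chain went the other way, with Col8a2 at 0.991 ± 0.264 CPM in siCTL and 3.96 ± 0.534 CPM in GSK126 (2.00, SE 0.22). The number of collagen increases was 2 without siCTL replicate 3 or GSK126 replicate 2.

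Of 46 matrix glycoproteins, proteoglycans and crosslinking enzymes 14 rose (30.4%) and 12 fell (26.1%), beside 14.3% and 10.7% of all genes. Without GSK126 replicate 3, 17 rose and 13 fell. Thbs2, thrombospondin 2, had 5764, 5971 and 5836 CPM in siCTL and 3504, 3539 and 2865 CPM in GSK126 (-0.83, SE 0.07, adjusted p = 6.09e-06), with GSK126 replicate 3 the lowest. Matn2 (-0.54), Efemp1 (-0.46) and the collagen-binding proteoglycan Dcn (-1.06) fell, whereas the elastic fibre protein Fbln5 (0.84) and the proteoglycan Prelp (1.87) rose. Of 36 matrix proteases and inhibitors 5 rose (13.9%, near the share over all genes) and 10 fell (27.8%). Without GSK126 replicate 3, 7 rose and 12 fell. Tissue plasminogen activator Plat had 94.8, 94.4 and 96.1 CPM in siCTL and 55.1, 54.7 and 49.6 CPM in GSK126 (-0.84, SE 0.06), and Adamts4 and Adamts14 each fell by 0.91. Without siCTL replicate 3 the increases in that list numbered 3. Of 28 integrin and laminin chains 8 rose (28.6%) and 6 fell (21.4%). Itga10 (-0.72), Lamb1 (-0.57) and Itgb3 (-0.51) were among those lower and Itga8 (1.34) was higher. The number that rose was 5 without siCTL replicate 2 or 3. Without GSK126 replicate 3, 7 rose and 9 fell.

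Of 19 contractile genes 8 rose (42.1%, beside 14.3% of all genes) and 1, Cald1 (-0.29), fell (5.3%, beside 10.7%). Their median was 0.12, and 2 fell without siCTL replicate 3 or GSK126 replicate 3. The smooth muscle actins Acta2 (0.58) and Actg2 (0.83), the myosin light chain Myl9 (0.75) and, named after its value was seen, Tagln (0.79) rose with errors of 0.06 to 0.08. Acta2 had 1173, 1119 and 1179.6 CPM in siCTL and 1697, 1629 and 1873 CPM in GSK126. Of 15 Yap targets 7 rose (46.7%) and 3 fell (20%). Ctgf (0.48), Cyr61 (0.39), F3 (0.41) and Amotl2 (0.55) were among those higher, and Ankrd1 fell by 0.75.

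Antigen presentation genes of MHC class I rose in part, 6 of 21 (28.6%, beside 14.3% of all genes), with none falling (beside 10.7%). Without GSK126 replicate 3 the transporter subunit Tap2 fell (-0.21, adjusted p = 0.0196). H2-K1 (chromosome 17, 33996017 to 34000347), a classical class I heavy chain, had 23.9, 22.6 and 23.8 CPM in siCTL and 47.8, 46.3 and 57.9 CPM in GSK126 (1.11, SE 0.08, adjusted p = 1.46e-06). H2-D1 (0.71), H2-Q4 (2.02), the light chain B2m (0.31), the peptide transporter Tap1 (0.33) and the immunoproteasome subunit Psmb9 (0.91) rose as well. The heavy chain genes are near copies of each other, so the split of reads between them is uncertain. Interferon-stimulated effectors varied between control libraries. Of 37 tested 2 rose (5.4%, beside 14.3% of all genes), Ifi27l2a (3.25) and Parp12 (0.44), and 7 with only the 6 libraries in the fit. Without any 1 of the 6 libraries the number was 1. The Parp12 call ended under 11 of the alternatives. The mean deviation of the list from the siCTL mean was -0.14, -0.13 and 0.27 (log2) in siCTL and 0.37, 0.48 and 0.58 in GSK126, so siCTL replicate 3 was close to GSK126 replicate 1.

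Many developmental transcription factors, among which H3K27me3 targets are common, were too low to be tested, and tested members changed in both directions. Of 39 Hox genes 21 passed the filter, and 10 were at 0 in all 6 libraries. Of the 21, 1 rose (4.8%, beside 14.3% of all genes) and 6 fell (28.6%, beside 10.7%). Hoxa11 had 83.5, 78.0 and 80.6 CPM in siCTL and 59.6, 55.9 and 68.6 CPM in GSK126 (-0.39, SE 0.07, adjusted p = 0.00141), and Hoxc6 (-0.56) and Hoxa6 (-0.81) fell, whereas Hoxc13 rose (0.53, adjusted p = 0.000160). Antisense transcripts run through the Hox clusters, and the sources used here do not say whether counting used strand, which bears on Mest as well. The decreases numbered 3 without siCTL replicate 2 or GSK126 replicate 2. Of 112 other developmental factors 52 were tested, with a median of 0.21. Of the 52, 13 rose (25%, beside 14.3% of all genes) and 7 fell (13.5%, beside 10.7%). Prrx2 (0.54) and Msx1 (1.47) rose. Six4 (-0.68) and Prrx1 (-0.31), the latter a limb and stromal factor, fell. The number of decreases was 3 without siCTL replicate 1 or 2 and 4 without siCTL replicate 3. Leaving out 1 library brought the number of increases in this list down to as few as 9. Without GSK126 replicate 3, 13 rose and 7 fell, but only 18 of the 20 calls made with all libraries remained. A gene silent in both groups did not pass the filter, so these counts cover only members with reads.

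Changes in genes of short transcripts moved with GSK126 replicate 3. Of 78 subunits of the respiratory chain and ATP synthase 36 rose (46.2%, beside 14.3% of all genes) and none fell (beside 10.7%), with a median of 0.24. Their summed level was 7365 to 7628 CPM in siCTL, 8248 and 8195 CPM in GSK126 replicates 1 and 2 and 9687 CPM in replicate 3. Without that library 28 rose and 2 fell, and without siCTL replicate 1, 2 or 3 the number that rose was 21, 17 or 19. It was 50 without GSK126 replicate 2 and 15 with only the 6 libraries in the fit. With the replicate block and the length trend removed together it was 23. Cytosolic ribosomal proteins summed to 36059 to 36820.3 CPM in siCTL, to 35255 and 34802 CPM in GSK126 replicates 1 and 2 and to 42740.4 CPM in replicate 3. Of 83 tested 2 rose (2.4%, beside 14.3% of all genes) and none fell with all libraries, and 2 rose and 24 fell without GSK126 replicate 3. Without siCTL replicate 2 the number that rose was 1, and without siCTL replicate 3 it was 0. Over all genes, the share that rose went from 18.3% in the shortest bin of coding length to 8.2% in the longest and the share that fell from 2.0% to 23.9%. Without GSK126 replicate 3 these shares were 13.7% and 16.0% for increases and 6.2% and 29.9% for decreases. The part of that library's length trend in each result was not tested beyond these values.

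**Figure D5:**
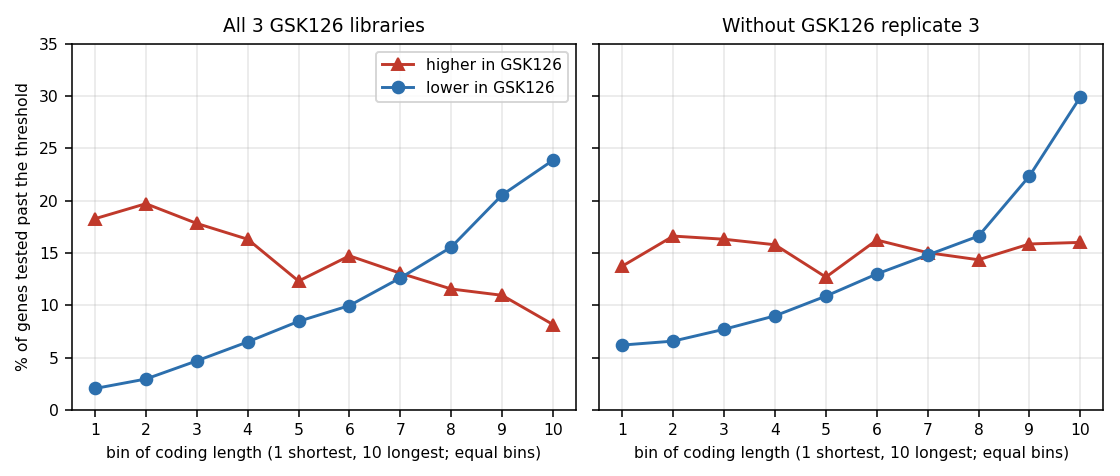
Percentage of tested genes that rose (red) or fell (blue) in each of 10 equal bins of coding length, 1324 genes a bin, with all 3 GSK126 libraries (left) and without GSK126 replicate 3 (right). The red line falls with length on the left (18.3% to 8.2%) and not on the right (13.7% and 16.0% at the ends), whereas the blue line rises in both.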

How the data were processed

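RNA libraries of 9 mouse cell cultures were sequenced, and the 6 libraries of siCTL and GSK126 were compared. The submitters' processing notes name HTSeq, TopHat2 2.0.6, bcl2fastq and the build mm10. The sources used here give neither the annotation nor whether counting used strand. The authors deposited raw counts per gene for each library, with RPKM (counts scaled to coding length and depth) beside them. The counts were used for all tests and levels. The authors' RPKM values were not used for any result printed here. Another 6 columns of per-sample values, of a combination treatment, were not used.

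The software was edgeR 4.0.16 under R 4.3.3. Genes were filtered with filterByExpr on the groups (at least 10 counts, 15 in total) and scaled by TMM, and the test was a robust quasi-likelihood fit over all 9 libraries, F-tests of GSK126 against siCTL, no replicate block, and Benjamini-Hochberg adjustment with a threshold of 0.05. Residual degrees of freedom were 6 and the common biological coefficient of variation 8.12%. An SE is the log2 fold change divided by the root of F. Tables and figures used Python 3.11.15, pandas 2.3.3, numpy 2.4.6 and matplotlib 3.10.9. The depth, 43062026 to 55898774 counts a library, puts 3 counts in a siCTL library at 0.0659 CPM on average.

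The comparison, the 41 gene lists and the alternatives were chosen with earlier results of these data known. The rule named Ezh2, Ezh1, Eed and Suz12, the 12 highest and 12 lowest changes under the conditions in the text, up to 4 members of each list by adjusted p, and every called member of lists with 5 or fewer. Others that are named, such as Tmem158, Pparg, Cebpa, Cdkn2a and genes given for lack of a call, were chosen after their values were seen. Lists are described by counts and medians, with no set test. Some members that enter these counts are not reported here by name. Of the genes tested 70.9% had a RefSeq promoter, so the planned bins by promoter CpG count are void and were not run. For the cholesterol and adipocyte lists (65.4% and 64.0%) no motif share is given. Positions are from GENCODE M21 on mm10 (GRCm38).

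On simulated counts of this comparison for 13240 genes, with 50 genes changed at each size, the procedure recovered 28% of 1.25-fold, 88% of 1.5-fold, 96% of 2-fold and 100% of 4-fold changes, and 8 of 164 calls were unchanged genes. The changed genes all had a mean of at least 1 CPM, so recovery below that level was not simulated. Alternatives were scaling by upper quartile, by library size only or by DESeq2's size factors, a filter of 1 CPM in 3 libraries or none, DESeq2 1.42.0, limma-voom (limma 3.58.1), only the 6 libraries, robust estimation off, halved counts, a replicate block, a loess trend on coding length removed (span 0.5), a fold change of at least 2, and each library left out in turn.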

Additional observations from a re-analysis of the deposited data

How the results depend on the processing

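With the fold change threshold of 2, 300 genes rose and 59 fell. Leaving out 1 library gave 1340 to 2029 genes that rose and 988 to 1815 that fell, the lowest without siCTL replicate 2 and siCTL replicate 3 and both highest without GSK126 replicate 3. With the length trend removed the number that fell was 2557, and with the replicate block and the length trend removed together 2577, against 1419. The number that rose was within 1.5 times of 1892 in every other setting run. Replicate numbers did not pair the libraries: same-numbered libraries of siCTL and GSK126 had correlations of -0.031 to -0.0046 between their deviations, and 0 of 6 correlated best with its own number. With the replicate block 1786 genes rose and 1349 fell. The 155 genes followed here were Ezh2, Ezh1, Eed, Suz12, the 12 highest and 12 lowest changes and up to 4 members of each list. Of these, 144 kept their side of the threshold in every alternative that was run. Among the exceptions were Ezh2, Cbx6, Cd14, Cdh13, Gsta4, Krt18, Parp12, Pcdh19, Rpl34 and Rps27l. Cdh13 and Pcdh19 lost their calls only without siCTL replicate 3 (0.0511 and 0.0569). Other genes named in the text are outside these 155 and were not all stable. Bmi1, for example, lost its call in 13 of 20 alternatives. DESeq2 gave 1895 and 1752 genes and limma-voom 1882 and 1464. Leaving out a library also tests other numbers of genes, 13379 to 13455. In the simulation, with 3 libraries a group, 28% of 1.25-fold changes were recovered. Only 200 of 13240 genes were changed there, so its adjusted threshold was stricter than in the data, where 3311 genes were called. Recovery in the data was not tested.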

Other observations

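Of 23 imprinted genes tested 6 rose (26.1%), Mest and Igf2 among them, and 4 fell (17.4%), beside 14.3% and 10.7% of all genes. Without GSK126 replicate 3, 5 fell. Ndn, a growth-restraining gene, had 29.2, 28.1 and 26.1 CPM in siCTL and 34.8, 33.4 and 36.4 CPM in GSK126 (0.33, adjusted p = 0.00422). Dlk1, which restrains fat cell formation, rose by 0.88 (adjusted p = 0.00549), and the retrotransposon-derived gene Peg10 fell by 0.62 (adjusted p = 0.00701), with 94.0, 95.8 and 63.6 CPM in GSK126 against 126, 132 and 129.99 CPM in siCTL. The groups of Ndn, Dlk1 and Peg10 did not overlap. Of 52 axon guidance genes 12 rose (23.1%) and 7 fell (13.5%). The number that rose was 7 without siCTL replicate 2 or 3. Without GSK126 replicate 3, 14 rose and 8 fell. Sema7a had 140.04, 129.9 and 133 CPM in siCTL and 87.2, 84.0 and 81.9 CPM in GSK126 (-0.67, adjusted p = 2.37e-06), Sema3a fell by 0.53, and Sema3f (0.91) and Efna5 (0.80) rose. Of 22 cadherins, protocadherins and catenins tested none rose (beside 14.3% of all genes) and 8 fell (36.4%, beside 10.7%), with a median of -0.19. Among those that fell were Jup, the catenin plakoglobin (-0.37, adjusted p = 0.00473), and Pcdhgc5 (-0.60), whose constant exons are shared within its cluster. The decreases numbered 5 without siCTL replicate 2 and 3 without siCTL replicate 3, and without GSK126 replicate 3, 2 members rose and 9 fell. Of 14 potassium channel genes Kcnk3, an acid-sensitive leak channel, had 0.0905, 0.0441 and 0.0424 CPM in siCTL and 3.18, 2.80 and 3.18 CPM in GSK126, while Kcnd1 (-0.52) and Kcnj2 (-0.46) fell.

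Of 23 cytokines and other secreted inflammatory factors tested 4 rose (17.4%) and 7 fell (30.4%), beside 14.3% and 10.7% of all genes. Their median was 0.09. The interleukin 1 receptor antagonist Il1rn had 198, 209.9 and 207 CPM in siCTL and 493, 490.1 and 485 CPM in GSK126 (1.25, SE 0.05, adjusted p = 5.77e-09), and Ccl9 rose by 0.52. The monocyte chemokines Ccl7 (-0.77) and Ccl2 (-0.52) fell. Of 34 Atf4 and serine pathway genes 11 rose (32.4%) and 6 fell (17.6%). Without GSK126 replicate 3, 12 rose and 8 fell. The serine and asparagine enzymes Phgdh (0.46), Shmt1 (0.84) and Asns (0.52) and the secreted factor Stc2 (0.82) were among those that rose, and the cystine transporter Slc7a11 fell (-0.72). Of 22 glutathione and oxidative stress genes 5 rose (22.7%), among them Mgst3 (0.67), Nqo1 (0.47) and Mgst1 (0.32), and 3 fell (13.6%). In that list 3 rose without siCTL replicate 2, and 4 rose and 4 fell without GSK126 replicate 3. Beside Acta1, markers of other cells that changed with all libraries were Cd14 (-0.39, adjusted p = 0.0344) and Krt18 (-1.50, adjusted p = 0.0450), calls that each ended in 7 alternatives. For Krt18 these included the fit without GSK126 replicate 3 (0.0993). Gas6, a ligand of the Axl receptor named after its value was seen, had 33.7, 29.6 and 30.0 CPM in siCTL and 117, 114 and 126 CPM in GSK126 (1.94, SE 0.06, adjusted p = 2.32e-09).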
